A study of Homo sapiens with 6 samples.

Results

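The integrin subunits described here are 10 epithelial integrin chains, 5 alpha (ITGA2, ITGA3, ITGA5, ITGA6 and ITGAV) and 5 beta (ITGB1, ITGB3, ITGB4, ITGB5 and ITGB8), chosen by gene symbol from the 35554 genes of the deposited count table. All 10 symbols were found, each in 1 row. Transcripts were measured by RNA sequencing in LNCaP, an established androgen-sensitive line from a metastasis of human prostate carcinoma, as the parental line (n = 3 libraries), and in an enzalutamide-resistant derivative, LNCaP-enzaR (n = 3). Enzalutamide blocks androgen signaling. LNCaP-enzaR represents 1 selection history: the drug was the selecting agent, and routine culture of the resistant cells includes it at a smaller dose. Its presence at harvest is not stated in the labels. Cells of both lines were harvested from flasks before confluence, and no further labelled factor separates the groups. The comparison addresses which genes differ between the resistant line and its parent.

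Integrins are the main receptors by which cells hold on to extracellular matrix. Each receptor is a pair of 1 alpha and 1 beta chain, and the pair decides the ligand: alpha 3 and alpha 6 chains bind laminins, alpha 2 binds collagens, alpha 5 binds fibronectin, and alpha V pairs bind ligands that carry the RGD tripeptide. Inside the cell most beta chains are coupled to actin through talin and kindlin. Beta 4 pairs only with alpha 6 and is coupled to intermediate filaments in hemidesmosomes. In the normal prostate, alpha 6 beta 4 is a feature of basal cells, and prostate carcinomas usually lose beta 4 while keeping alpha 6 beta 1.

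Libraries held 77759122 to 98616465 counts. Levels are given as CPM, counts scaled to 1000000 per TMM-scaled library. Luminal prostate markers (KRT8, KRT18, KLK3, FOLH1 and HOXB13) were abundant in both lines, with a summed level of 3288 to 3352 CPM in parental and 2197 to 2500 CPM in LNCaP-enzaR libraries. The sum covers opposite directions. KLK3 (log2 fold change −3.08), HOXB13 (−0.84) and FOLH1 (−0.63) were lower past the threshold given below, KRT8 (1.16) was higher, and KRT18 (0.50) was not past it. Of the 4 basal epithelial markers, TP63 reached at most 1 count, KRT5 at most 2 and KRT15 at most 4 counts in any library, and the summed basal level, nearly all of it KRT14, was 0.923 to 1.71 CPM in parental and 0.433 to 0.823 CPM in LNCaP-enzaR. The 3 leukocyte markers summed to at most 0.174 CPM, the 3 endothelial markers to 3.93 to 6.10 CPM, nearly all of it VWF, and the fibroblast markers to 14.3 to 17.3 CPM in parental and 6.50 to 7.71 CPM in LNCaP-enzaR, with COL1A1 in front. Of the 3 fibroblast markers tested, COL1A1 was lower and PDGFRB higher (0.641 ± 0.038 to 1.73 ± 0.295 CPM). Mitochondrial transcripts took 6.72% to 7.06% of the counts in parental and 14.7% to 15.5% in LNCaP-enzaR. LNCaP-enzaR replicate 1 stood apart from the other 2 libraries of its line, with a chi-square of the counts of 31.2 and 39.1 per degree of freedom against them, where the remaining pairs within a line gave 5.70 to 9.48, and member values without it are given below. The part of these shifts in the members' values was not tested.

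Promoter sequences are shown for the called members that have an entry in RefSeq's table, because they stand on opposite sides of the comparison: ITGA2 and ITGB8 were higher and ITGA6 was lower in LNCaP-enzaR. Each line holds the 250 bases before the RefSeq start nearest to the deposited gene start, 5′ to 3′ on the gene's strand (GRCh38.p14). Capitals mark matches on either strand to 5 motifs: the GC box GGGCGG, the AP-1 motif TGANTCA, the ETS core CCGGAA, the E-box CACGTG and the TATA box TATAAA. The AP-1 motif and the E-box are their own reverse complements, and no matches overlapped.
ITGA2 (chr5:52989102-52989351, plus strand): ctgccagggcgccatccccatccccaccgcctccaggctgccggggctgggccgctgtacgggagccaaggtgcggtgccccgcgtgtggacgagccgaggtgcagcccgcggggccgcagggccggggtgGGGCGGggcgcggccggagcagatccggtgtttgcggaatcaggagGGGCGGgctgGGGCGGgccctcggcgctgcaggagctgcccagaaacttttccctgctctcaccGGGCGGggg
ITGB8 (chr7:20330650-20330899, plus strand): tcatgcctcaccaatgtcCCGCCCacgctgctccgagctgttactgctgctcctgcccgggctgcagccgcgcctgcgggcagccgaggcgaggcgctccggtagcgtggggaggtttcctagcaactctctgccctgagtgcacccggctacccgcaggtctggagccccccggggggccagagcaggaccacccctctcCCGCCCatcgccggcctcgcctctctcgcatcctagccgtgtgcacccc
ITGA6 (chr2:172427086-172427335, plus strand): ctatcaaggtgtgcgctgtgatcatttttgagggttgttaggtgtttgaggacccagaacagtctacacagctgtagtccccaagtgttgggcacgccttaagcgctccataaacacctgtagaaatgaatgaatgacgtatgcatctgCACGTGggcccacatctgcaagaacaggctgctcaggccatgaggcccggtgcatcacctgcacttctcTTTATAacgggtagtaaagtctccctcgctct
In these windows ITGA2 held 4 GC boxes and ITGB8 held 2, with a GC content of 76.4% and 71.2%. The ITGA6 window held no GC box, 1 E-box and 1 TATA box at a GC content of 50.8%, and RefSeq lists 2 starts for this gene. Promoter entries were matched for 7 of the 10 members, of which 5 held a GC box, against 42.6% of all 35116 promoter windows of this length. ETS cores were in 2 of the 7 (14.5% of all windows), an E-box in 1 (6.34%), a TATA box in 1 (10.7%) and the AP-1 motif in 0 (6.57%). The ITGB1 window lies 47562 bases from the deposited gene start, the others within 198 bases. For ITGB8 the RefSeq start lies 198 bases inside the deposited gene. Most of its window, with the second GC box, is therefore within that gene. ITGA3, ITGB3 and ITGB4 had no entry.

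Of the 10 members, 9 passed the low-count filter and 5 were past the threshold, an adjusted p of at most 0.05 with a fold change of at least 1.5 (edgeR quasi-likelihood test, Benjamini-Hochberg adjusted over 19711 genes). Across all genes tested 42.7% were past it, so that 5 of 9 lies close to the background of this comparison. ITGA3, ITGA2, ITGB4 and ITGB8 were higher in LNCaP-enzaR, a direction called for 23.3% of all genes, and ITGA6 was lower, a direction called for 19.5%. ITGB8 reached the filter's minimum of 0.111 CPM in all 3 LNCaP-enzaR libraries and in 2 parental libraries, and so passed through LNCaP-enzaR alone. ITGB3 did not pass. Counts and medians over the 9 are therefore descriptions. With no minimum fold 8 of the 9 reached the adjusted p, against 66.3% of all genes, and in 8 of 9 every library of one line lay above every library of the other, against 70.6%. The median log2 fold change of the 9 members was 0.32, against 0.01 for all genes. In bulk RNA, fewer cells that express a gene and less RNA per cell cannot be told apart.

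**Figure D1:**
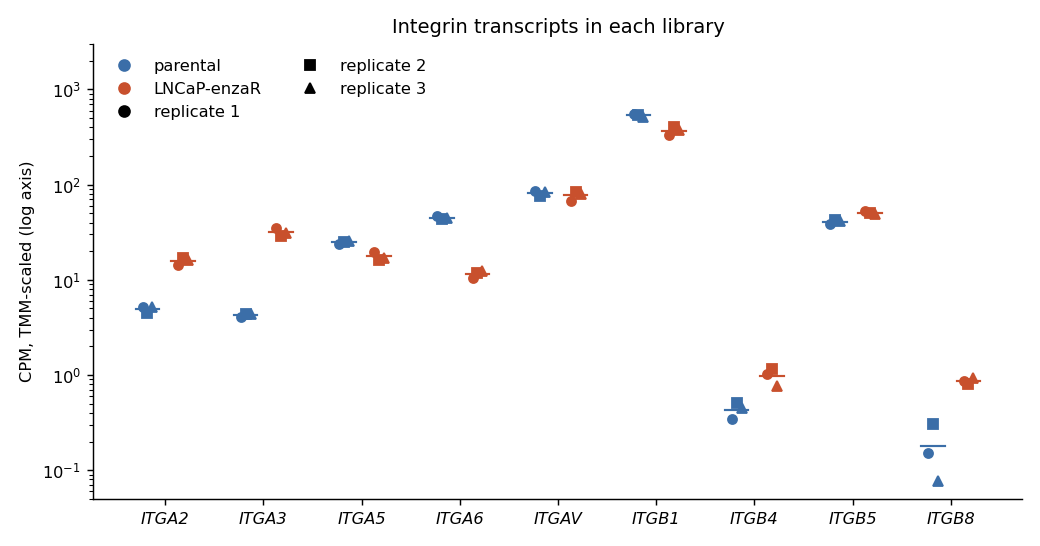
TMM-scaled CPM (log axis) of the 9 tested members in each library, blue for parental and orange for LNCaP-enzaR, with symbols for the replicate number and a horizontal line at the mean of the 3 libraries. ITGA3 and ITGA2 lie higher and ITGA6 lower in all 3 LNCaP-enzaR libraries, ITGAV overlaps, and ITGB1 has the highest CPM of the members in every library. ITGB3, with at most 7 counts in any library, is not drawn.

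The laminin-binding alpha chains among the members moved in opposite directions. ITGA3 (ENSG00000005884.18, chromosome 17, 50055968 to 50090481, GRCh38), which pairs with beta 1, was at 4.11, 4.42 and 4.34 CPM in parental replicates 1 to 3 and at 34.6, 29.1 and 30.8 CPM in those of LNCaP-enzaR. The groups were far apart, and every LNCaP-enzaR library was above every parental one. Means of 4.29 ± 0.163 and 31.5 ± 2.84 CPM (SD, n = 3 each) corresponded to a 7.34-fold difference, 2.88 on the log2 scale (SE 0.089, adjusted p = 2.59e-12). ITGA6 (ENSG00000091409.16, chromosome 2, 172427354 to 172506459), the partner of beta 1 and beta 4, was at 46.95, 43.2 and 44.6 CPM in parental and at 10.4, 11.9 and 12.3 CPM in LNCaP-enzaR libraries. All LNCaP-enzaR libraries were below all parental ones. The mean of 44.9 ± 1.89 CPM in parental and 11.5 ± 0.982 CPM in LNCaP-enzaR gave −1.96 on the log2 scale (SE 0.078, adjusted p = 2.88e-11), or 3.90-fold lower.

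Per kilobase of exon, which allows levels of different genes to be compared, ITGA3 stood at 0.0596, 0.0697 and 0.0663 of the ITGA6 level in the parental libraries. In the LNCaP-enzaR libraries it stood at 2.27, 1.67 and 1.71 times the ITGA6 level. The order of both laminin-binding members was thus turned in every LNCaP-enzaR library, also with the longest transcript as the length (0.0928 to 0.109 in parental, 2.60 to 3.53 in LNCaP-enzaR). This ratio was chosen after its values were seen and was not tested.

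The collagen-binding chain ITGA2 rose, and the fibronectin-binding chain ITGA5 differed by less than the fold limit. ITGA2 (ENSG00000164171.11, chromosome 5, 52989340 to 53094779), whose promoter is printed above, was at 5.16, 4.43 and 5.14 CPM in parental and at 14.4, 16.9 and 16.3 CPM in LNCaP-enzaR libraries, without overlap. Means of 4.91 ± 0.418 and 15.8 ± 1.31 CPM corresponded to 1.69 on the log2 scale (SE 0.098, adjusted p = 1.64e-09). ITGA5 (ENSG00000161638.11, chromosome 12, 54395261 to 54419266) was at 23.6, 24.7 and 25.8 CPM in parental and at 19.5, 16.2 and 17.0 CPM in LNCaP-enzaR libraries. Every LNCaP-enzaR library was below every parental one, and the log2 fold change, −0.49 (SE 0.080, adjusted p = 8.91e-05), was larger than the spread between replicates but amounted to only 1.40-fold.

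ITGAV (ENSG00000138448.12, chromosome 2, 186590056 to 186680901), the shared alpha chain of the RGD receptors, did not differ beyond the spread. Its level was 86.5, 76.6 and 84.1 CPM in parental and 67.5, 84.5 and 80.3 CPM in LNCaP-enzaR libraries, with overlapping ranges. The log2 fold change was −0.09 (SE 0.080, adjusted p = 0.345). It was 0.0080 without LNCaP-enzaR replicate 1, the lowest library, and 0.012 with upper-quartile scaling, so that its sign was not stable.

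Among the beta chains, ITGB1 (ENSG00000150093.20, chromosome 10, 32887273 to 33005792), the common partner of alpha 2, 3, 5, 6 and V, had the highest level of the members, also per kilobase of exon. It was at 547, 542 and 514 CPM in parental and at 331, 402 and 374 CPM in LNCaP-enzaR libraries, lower in all 3. Means of 534 ± 17.95 and 369 ± 35.9 CPM gave −0.54 on the log2 scale (SE 0.067, adjusted p = 6.32e-06), 1.45-fold and short of the fold limit. Without LNCaP-enzaR replicate 2 it was −0.60 and past the limit, and without LNCaP-enzaR replicate 1, the lowest of its line, it was −0.46.

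ITGB5 (ENSG00000082781.12, chromosome 3, 124761948 to 124901418), which pairs with alpha V in a vitronectin receptor, was at 38.1, 42.4 and 41.1 CPM in parental and at 53.2, 50.1 and 48.8 CPM in LNCaP-enzaR libraries. Without overlap between lines, it was higher by 0.32 on the log2 scale (SE 0.065, adjusted p = 0.000531), 1.25-fold and under the fold limit. ITGB1 and ITGB5, both above 30 CPM throughout, thus lay on opposite sides of 0, and neither was past the threshold.

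ITGB4 and ITGB8 rose at levels near or below 1 CPM. ITGB4 (ENSG00000132470.14, chromosome 17, 75721328 to 75757818), the hemidesmosomal beta chain, had 32, 46 and 35 counts in the parental and 88, 103 and 77 counts in the LNCaP-enzaR libraries. The groups did not overlap. The means, 0.432 ± 0.081 and 0.987 ± 0.197 CPM, differed by 1.19 in log2 units (SE 0.274, adjusted p = 0.00155). Among markers of the basal cells that normally carry beta 4, TP63, KRT5 and KRT15 stood at 4 counts or fewer in all libraries, whereas KRT14, at 129, 84 and 134 counts in parental and 67, 50 and 43 in LNCaP-enzaR libraries, was lower (−1.18 on the log2 scale, adjusted p = 0.00218), opposite to ITGB4. ITGB8 (ENSG00000105855.10, chromosome 7, 20330702 to 20415754), which pairs with alpha V in a receptor for latent TGF-β, had 14, 28 and 6 counts in parental and 75, 71 and 92 counts in LNCaP-enzaR libraries, again without overlap. The means, 0.178 ± 0.118 and 0.867 ± 0.062 CPM, differed by 2.25 in log2 units (SE 0.397, adjusted p = 0.000167). Leaving out parental replicate 2, the highest of its line, gave 2.89, and leaving out parental replicate 3, the lowest, gave 1.91. ITGB3 (ENSG00000259207.9, chromosome 17, 47253827 to 47313743), the beta chain of platelets and endothelium, had 2, 7 and 0 counts in parental and 6, 0 and 3 counts in LNCaP-enzaR libraries. These lie below, at or above the floor of 3 counts (0.0302 to 0.0382 CPM), with 7 as the highest. No fold change is given for it, and 33.2% of its exonic bases lie in exons of another gene.

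Leaving out LNCaP-enzaR replicate 1 changed no member's call. The log2 fold changes were then 2.81 for ITGA3, 1.76 for ITGA2, 2.26 for ITGB8, 1.17 for ITGB4, 0.29 for ITGB5, −0.56 for ITGA5 and −1.89 for ITGA6. Without the mitochondrial genes 5 members were past the threshold.

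**Figure D2:**
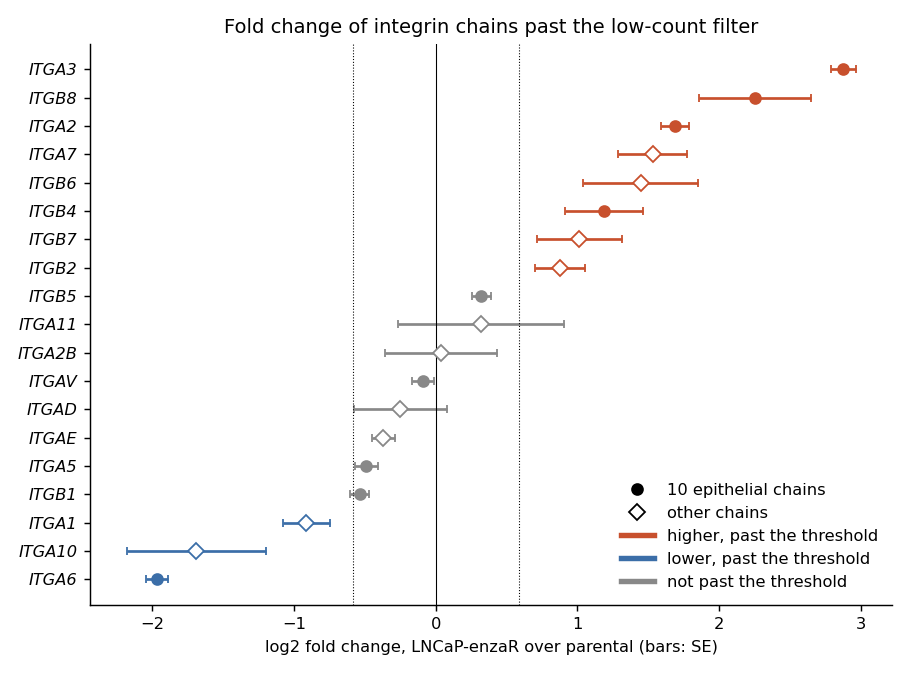
Log2 fold change (LNCaP-enzaR over parental) with its SE for the 19 integrin chains that passed the low-count filter, filled circles for the epithelial members and open diamonds for the other chains. Dotted lines mark 1.5-fold. ITGA3 at 2.88 and ITGA6 at −1.96 are the outermost points, and the long bars belong to chains near or under 1 CPM such as ITGA10, ITGA11 and ITGB8.

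The order of levels per kilobase of exon changed below ITGB1. In parental cells ITGB1 (36.7 ± 1.23 CPM per kb) was followed by ITGA6 (6.73 ± 0.282), ITGB5 (6.22 ± 0.334), ITGAV (4.26 ± 0.267), ITGA5 (3.34 ± 0.149), ITGA2 (0.622 ± 0.053) and ITGA3 (0.438 ± 0.017). Libraries of ITGA6 and ITGB5 overlapped, as did those of ITGB8 and ITGB3 at the bottom, and all other neighbours were separate. In LNCaP-enzaR, ITGB1 (25.3 ± 2.46 CPM per kb) was followed by ITGB5 (7.78 ± 0.348), ITGAV (4.01 ± 0.460), ITGA3 (3.21 ± 0.290), ITGA5 (2.38 ± 0.229), ITGA2 (2.01 ± 0.166) and ITGA6 (1.72 ± 0.147). There ITGAV could not be separated from ITGA3, nor ITGA2 from ITGA6. The order depends on the length used. In GENCODE v44, whose coordinates for ITGAV differ from the deposited ones, its exons span 19336 bases and its longest transcript 7951 bases. With the latter ITGAV ranked above ITGB5 and ITGA6 in parental cells, while ITGB1 stayed first (95.2 CPM per kb).

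Shares within the family show the same shift on a scale free of library scaling. Of the summed CPM per kb of 17 alpha chains in the table, ITGA6 took 34.7%, 32.8% and 32.0% in the parental and 8.95%, 10.3% and 10.8% in the LNCaP-enzaR libraries. The size of these shares depends on the length used. With the longest transcript as the length, ITGAV (10.4 CPM per kb) stood above ITGA6 (7.72 CPM per kb) in parental cells. ITGA3 went from 2.16% ± 0.114 to 18.6% ± 1.55 and ITGA2 from 3.06% ± 0.197 to 11.6% ± 1.04 (SD, n = 3 each). ITGA5 went from 16.5% ± 0.639 to 13.8% ± 1.22, while ITGAV (21.0% ± 0.998 and 23.2% ± 2.82) overlapped between lines. So did ITGAE, which is not a member, at 21.6% ± 1.44 in parental and 19.7% ± 1.83 in LNCaP-enzaR. Among the 8 beta chains, ITGB1 went from 84.8% ± 0.984 to 74.6% ± 2.74 and ITGB5 from 14.4% ± 0.876 to 23.0% ± 2.35.

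Apart from ITGB1, the known beta partners of ITGAV are ITGB3, ITGB5, ITGB6 and ITGB8. ITGB5 held 99.2% ± 0.344 of their summed level in parental and 98.0% ± 0.268 in LNCaP-enzaR, so that the rise of ITGB8 left it at 0.722% ± 0.069. Shares without overlap reached p = 0.10, the smallest that a two-sided exact permutation test of 3 against 3 can give, and 0.129 adjusted over the 22 shares tested. None was therefore past 0.05. For ITGAV the exact permutation p was 0.40.

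**Figure D3:**
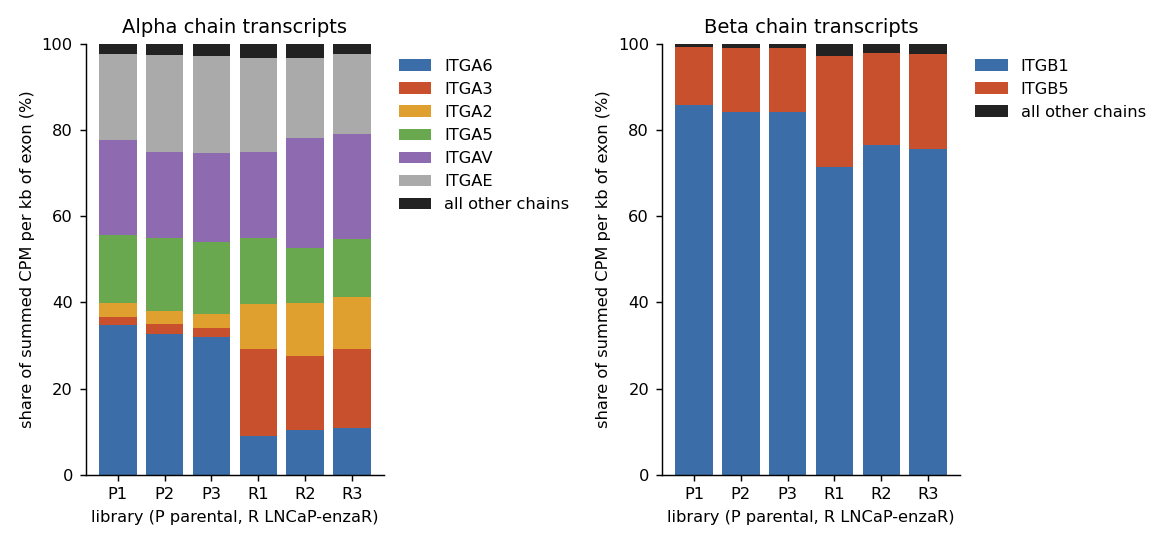
Stacked bars of the share (%) of each chain in the summed CPM per kb of exon, for alpha chains on the left and beta chains on the right, in parental (P1 to P3) and LNCaP-enzaR (R1 to R3) libraries. ITGA6 shrinks from a mean share of 33.1% to between 8.95% and 10.8% while ITGA3 and ITGA2 widen, and ITGB5 widens at the side of ITGB1.

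Of the other 16 integrin chains, 15 were in the table and 10 could be tested, with 4 higher and 2 lower past the threshold, against 23.3% and 19.5% of all genes. ITGAE, the alpha chain of the E-cadherin receptor, was the only one of these 10 above 3 CPM, at 29.0 ± 2.11 CPM in parental and 22.5 ± 2.28 CPM in LNCaP-enzaR, a log2 fold change of −0.37 that was short of the fold limit. ITGA1 and ITGA10, both collagen-binding, fell with log2 fold changes of −0.91 (adjusted p = 0.000211) and −1.69 (0.00756), so that among collagen-binding chains only ITGA2 was higher past the threshold. ITGA7, a laminin-binding chain, rose from 0.475 ± 0.056 to 1.38 ± 0.301 CPM (log2 fold change 1.53). ITGB2, the leukocyte beta chain, ITGB6, a further partner of alpha V, and ITGB7, the partner of ITGAE, rose by 0.88, 1.45 and 1.01 on the log2 scale at means of at most 2.46 CPM. ITGB6 passed the filter through LNCaP-enzaR alone and ITGA10 through parental cells alone, and 42.3% of the exonic bases of ITGB7, 16.7% of those of ITGB6 and 13.2% of those of ITGA1 lie in exons of other genes. ITGA2B (0.04), ITGA11 (0.32) and ITGAD (−0.25) did not differ beyond the spread, with adjusted p of 0.943, 0.648 and 0.529. The 5 chains that did not pass the filter had at most 17 counts in any library.

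Genes of the matrix ligands were measured in the same libraries. Of 18 laminin and collagen genes listed, 14 were tested, 9 were higher and 4 lower (42.7% of all genes were past the threshold), with a median log2 fold change of 1.58, against 0.01 for all genes. COL4A3 and COL4A4, 2 of the 9, passed the filter through LNCaP-enzaR alone, and with at least 10 counts required in all libraries 7 were higher and 4 lower. LAMC1, LAMA1, COL1A1 and COL4A2 were the lower ones, and COL1A1 is also in the fibroblast list above. LAMB2, a laminin beta chain, rose from 80.0 ± 2.27 to 298 ± 35.5 CPM (log2 fold change 1.90, adjusted p = 3.22e-11), and COL4A5, a chain of basement membrane collagen, from 65.1 ± 1.03 to 223 ± 2.30 CPM (1.78). Among laminin chains chosen after their values were seen, LAMA3 rose from 30.2 ± 2.24 to 87.5 ± 3.18 CPM (1.54), LAMA5 from 39.4 ± 1.88 to 93.7 ± 11.3 CPM (1.25) and LAMB3 from 0.166 ± 0.063 to 4.22 ± 0.783 CPM (4.64). LAMC1, the gamma chain of most laminins, fell from 731 ± 18.9 to 399 ± 22.7 CPM (−0.87).

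Ligands of the RGD-binding receptors went mostly the other way. Of 14 listed genes, 10 were tested, with 5 lower and 2 higher past the threshold, again against 42.7% of all genes, and a median of −1.02. FN1, which encodes fibronectin, the ligand of alpha 5 beta 1, was at 329, 339 and 343 CPM in parental and at 32.2, 30.2 and 30.7 CPM in LNCaP-enzaR libraries. Both lines lay far apart, at −3.44 on the log2 scale (SE 0.058, adjusted p = 7.20e-15). THBS1, which encodes thrombospondin 1 (named with its values known), went from 13.8 ± 1.08 to 2.41 ± 0.487 CPM (−2.51). The other lower genes were CCN1, FBN1 and NPNT, the last of which passed the filter through parental cells alone, and the higher ones were MFGE8 and LTBP1. LTBP1, which tethers latent TGF-β in the matrix, rose from 1.41 ± 0.114 to 16.5 ± 0.726 CPM (3.55, adjusted p = 1.50e-12).

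Of 25 focal adhesion genes, which couple integrins to actin and signaling, 24 were tested, with 8 higher, 3 lower (PARVA, LIMS1 and TNS3) and a median of 0.35, so that 11 of 24 were past the threshold against 42.7% of all genes. LIMS2, 1 of the 8, passed the filter through LNCaP-enzaR alone. PARVA, a parvin that joins integrin-linked kinase to actin, fell from 22.4 ± 0.510 to 1.51 ± 0.256 CPM (log2 fold change −3.88, adjusted p = 1.27e-12), and NEDD9, a scaffold of the CAS family, rose from 6.74 ± 0.456 to 40.2 ± 2.43 CPM (2.58). The other members of the ILK, PINCH and parvin complex were looked at after the values of PARVA were seen. LIMS1, which encodes PINCH1, fell from 68.5 ± 1.94 to 20.7 ± 1.45 CPM (−1.73). LIMS2, the other PINCH gene, went the opposite way at a low level, from 0.099 ± 0.090 to 0.386 ± 0.140 CPM (1.94). PARVB was at 77.9 ± 1.32 and 80.3 ± 7.67 CPM (0.04, adjusted p = 0.592). ILK had a log2 fold change of −0.54 that was short of the fold limit, with 78.5% of its exonic bases in exons of other genes.

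Of the 8 activators, which hold talins, kindlins and RAP1, 7 were tested, with 1 higher and 1 lower, against 42.7% of all genes past the threshold. The higher one was TLN2 (6.35 ± 0.698 to 11.4 ± 0.311 CPM, log2 fold change 0.84) and the lower one FERMT3, the kindlin of blood cells (−1.91, with a mean of 0.710 CPM in parental). None of the 4 inactivators (SHARPIN, ITGB1BP1, DOK1 and FLNA) was past the edgeR threshold, against 42.7% of all genes. All 4 had an adjusted p under 0.05, against 66.3% of all genes at any fold, with log2 fold changes of 0.39 to 0.56, at most 1.48-fold. In the hemidesmosome list 1 of 4 genes was past the threshold, against 42.7% of all genes. It was PLEC, which encodes plectin, the link of beta 4 to keratin filaments (142 ± 12.0 to 330 ± 42.8 CPM, 1.22). Of 12 surface partners, 11 were tested, with 4 higher (SDC4, CD82, BSG and CD63) and 2 lower (SDC1 and PLAUR), 6 of 11 against 42.7% of all genes. SDC4, a syndecan that acts with fibronectin receptors, rose from 15.8 ± 0.322 to 72.1 ± 0.143 CPM (2.19), and the tetraspanin CD82 from 5.97 ± 0.550 to 18.8 ± 1.94 CPM (1.66). Of 12 trafficking genes, 11 were tested and 1, DAB2, was lower (−2.42, at a mean of 0.218 CPM in parental and passing the filter through parental cells alone), against 42.7% of all genes past the threshold in either direction. CCN1, FBN1, NPNT, MFGE8, COL4A3, COL4A4, LAMA1, COL1A1, COL4A2, TNS3, FERMT3, BSG, CD63, SDC1, PLAUR and DAB2 are named only to complete these counts, with their values known.

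**Figure D4:**
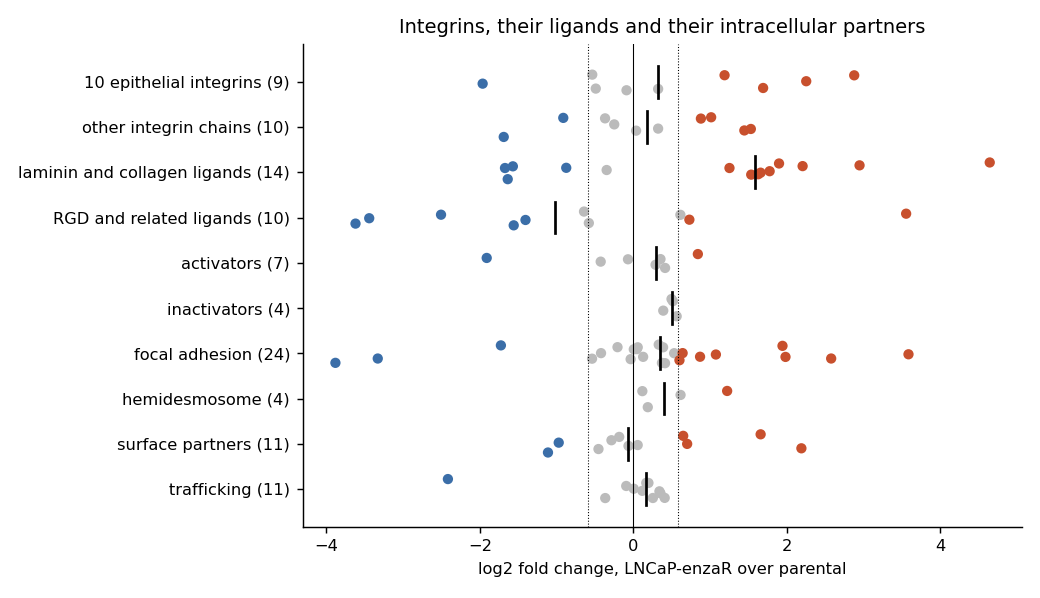
Log2 fold change (LNCaP-enzaR over parental) of every tested gene in the 10 lists, orange for higher and blue for lower past the threshold and grey for neither, with the number of tested genes in brackets, a black bar at each list's median and dotted lines at 1.5-fold. The median is 1.58 for laminin and collagen ligands and −1.02 for RGD ligands, and the trafficking genes stay near 0 apart from 1 gene.

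The genomic surroundings of the members differed. Across all genes tested 23.3% were higher and 19.5% lower past the threshold, and the surroundings hold only 5 to 74 tested genes each. ITGA6 lies among genes that were mostly lower: of 13 tested genes centred within 1 Mb of it, 9 were lower and 1 higher past the threshold, with a median log2 fold change of −1.30. Around ITGAV, on the same arm of chromosome 2, 3 of 6 genes were higher and 1 lower, with a median of 0.52. Around ITGA3, 10 of 37 genes were higher and 9 lower (median 0.07), and around ITGB4 16 of 74 were higher and 10 lower (0.01). ITGA2 has 7 tested neighbours with a median of 0.47, among them ITGA1, whose log2 fold change of −0.91 is opposite to that of ITGA2. ITGB8 was higher although 4 of its 5 tested neighbours were lower. The part of the surroundings in the members' values was not tested.

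**Figure D5:**
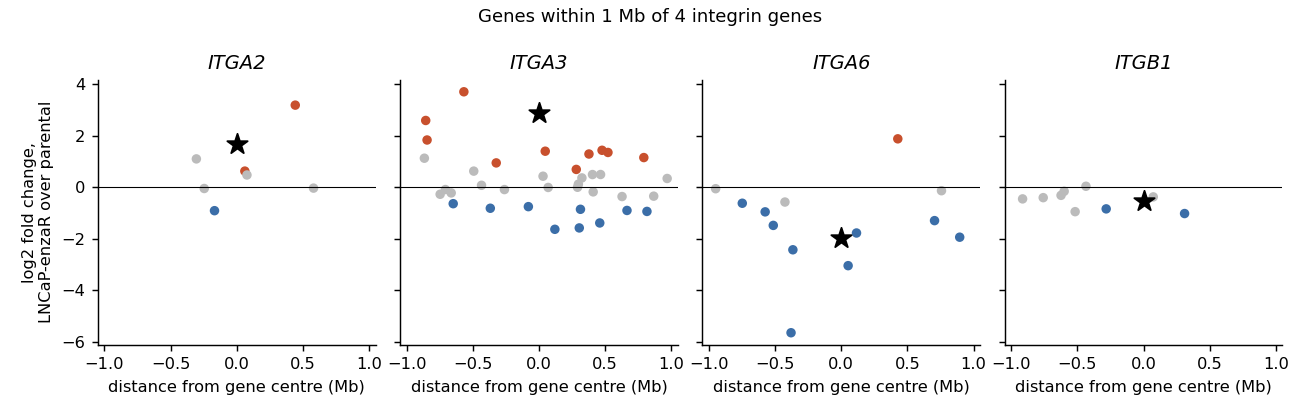
Log2 fold change of the tested genes within 1 Mb of ITGA2, ITGA3, ITGA6 and ITGB1 against the distance of gene centres (Mb), with the integrin as a black star and neighbours in orange (higher), blue (lower) or grey (neither past the threshold). Around ITGA6 9 of 13 genes are blue, against 19.5% of all genes tested, whereas the neighbours of ITGA3 spread on both sides of 0.

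Likeness to ITGA3, the member with the largest change, was measured as Pearson's r of log2 CPM over the 6 libraries. Among genes with a mean of at least 5 CPM in a line, the closest were TUBG2 (r = 0.9999, log2 fold change 2.23), RP11-478C6.7 (0.9999, 3.24) and TTR (0.9998, 4.84). All 6 points are shared and mainly separate the lines, so that 1113 genes had an r above 0.99.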

How the data were processed

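RNA was sequenced in 3 libraries each of parental LNCaP and LNCaP-enzaR, grouped by sample title. Reads were trimmed (Cutadapt), aligned to GRCh38 with GENCODE genes (STAR) and assigned to genes (featureCounts) by the authors, who deposited unnormalized counts. The strand setting and the handling of multi-mapping reads are not given in the sources used here, so values of overlapping genes are uncertain.

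Counts were fitted with edgeR 4.0.16 (R 4.3.3): filterByExpr (19711 genes, 99.96% of counts), TMM scaling and the quasi-likelihood F-test (robust, no covariates), with Benjamini-Hochberg adjustment. The study's methods name DESeq2, run here as an alternative (1.42.0). Replicates are flasks of 1 line each, so p-values measure the spread between flasks only. No libraries were duplicates. The script was tested on simulated data with known changes. Exon lengths and overlaps came from GENCODE v44, in which ITGAV alone among the members has coordinates other than the deposited ones. A floor of 3 counts covers counting error only. Levels per kb divide CPM by the union of exons. 

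The members and lists were chosen with earlier results of these data known, and some listed genes are not reported here. Named genes are all members, every other integrin chain past the filter, and in each list the 2 genes with the largest change past the threshold at a mean of at least 5 CPM in a line. Any further gene is marked in the text as picked with its values known.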

Additional observations from a re-analysis of the deposited data

How the results depend on the processing

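The count of members past the threshold was 5 and was 4 to 6 with DESeq2, another scaling, filter or gene set, a fold of at least 2, the replicate block, or 1 library left out. Without a minimum fold it was 8. The count over all genes was 8425, and 13074 without a minimum fold and 5561 with a fold of at least 2. Of the 9 tested members, 7 kept direction and side of the threshold in every alternative that tested them. ITGAV, not called in any, had 0.012 with upper-quartile scaling and ranged from −0.15 to 0.0080 with 1 library left out, the upper end without LNCaP-enzaR replicate 1. ITGB1 ranged from −0.60 to −0.46 in the same way and passed the limit at −0.60, without LNCaP-enzaR replicate 2. ITGB8 was removed by the stricter filter (10 counts in all libraries), and its low counts, at most 92, limit its precision. All 12 shares recomputed, those of the members and of ITGB6 among ITGAV partners, kept their direction, and the other 10 of the 22 were not recomputed.

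Without a minimum fold, counts were 6 of 7 for activators, 4 of 4 for inactivators, 19 of 24 for focal adhesion genes and 8 of 11 for trafficking genes. Of all genes tested 66.3% reached the adjusted p in this way. With a fold of at least 2 they were 1 for activators and 3 for surface partners. Inactivators had 3 calls with upper-quartile scaling, 1 with the stricter filter, 1 with protein-coding genes only and 0 to 1 with 1 library left out. Their log2 fold changes lie close to 1.5-fold, and upper-quartile scaling moves all genes by a median of 0.10. With the stricter filter trafficking had 0 calls, since DAB2 was removed. Of the 29 further genes recomputed, 25 kept both direction and side in all alternatives. With 1 library left out ITGA2B ranged from −0.27 to 0.29, ITGA11 from −0.0071 to 1.14 and PARVB from −0.025 to 0.11. ILK passed the limit without LNCaP-enzaR replicate 2 (−0.61). Upper-quartile scaling moved the share of higher calls among all genes from 54.5% to 60.9%.

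Libraries share replicate numbers, and the sample titles state no pairing by them. Deviations from the line's mean correlated between same-numbered libraries at −0.065 to −0.00041, which cannot show whether these were handled together. With the replicate block 5 members and 8212 genes were past the threshold. The cause of other changes was not tested.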
